A study of Homo sapiens with 6 samples.

Results

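The genes described here are 10 direct transcriptional targets of p53 outside the BCL2 family: CDKN1A, MDM2, ZMAT3, SESN1, TP53INP1, BTG2, RRM2B, DDB2, PHLDA3 and CCNG1. They were taken by symbol from the 33644 genes of the authors' deposited table, after matching Ensembl identifiers without their version, and all 10 were found. The list was drawn up with the log2 fold changes and adjusted p-values of this same table known, so that the changes given below describe the members and test nothing about them as a set. According to the labels the series holds 3 samples of HEK293T cells of genotype WT and 3 of a HEK293T derivative of genotype alt-LAMA3 KO, all untreated and labelled day 0. HEK293T is a human embryonic kidney line with the large T antigen of SV40, a viral protein known to bind p53. The labels do not say how many clones the knockout derivative represents, nor whether the samples were grown separately. The deposited p-values measure only the spread between the libraries behind the table, which may be technical.

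p53 is a transcription factor that binds DNA as a tetramer after DNA damage and other stresses. Among its targets are genes that stop the cell cycle, repair DNA, supply nucleotides and dampen growth signals, and genes that bring p53 itself down again. Because MDM2, the ubiquitin ligase that marks p53 for destruction, is one of them, the pathway forms a feedback loop.

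The table analysed holds 1 comparison between 2 groups that its header does not name, and no value for any single sample. Positive log2 fold changes mean higher expression in what is called here the numerator group, and neither group is equated with the wild type or the knockout. LAMA3, the locus that names the knockout, had a mean normalized count of 19.0 and a log2 fold change of -0.62 with an SE of 0.69 (adjusted p = 0.578) in the authors' deposited table. The lowest means fell on 9 values each shared by at least 50 genes, 3 with positive, 3 with negative and 3 with no log2 fold change, where 6 labelled samples would give 6. Each value has this pattern if 1 library stands behind it, in which case the mean covers 9 libraries and 3 of them are in neither group. The marker levels went against the labelled cell type. Of the T-lymphocyte markers 12 of 13 reached the low-level filter of 72.0 mean normalized counts, which is 5 per 1000000 of all counts, with CD8A at 27074 in the authors' deposited table. Of 10 markers of HEK293 cells and kidney epithelium 0 did so, and KRT19, NEFL, NEFM and SALL1 were listed at 0 there. T-lymphocyte markers also moved with the comparison, being lower in the numerator group in 10 of 12 tested and higher in 0, with a median log2 fold change of -0.46. Their part in the changes of the p53 targets was not tested. Given its markers and its 9 shared lowest values, the table may come from samples other than the 6 labelled ones, and every value given here belongs to the libraries behind the table, whatever cells these were. Fewer cells of a type and less RNA per cell cannot be told apart in such bulk samples.

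Promoter sequence was not itself used to choose the members. They were chosen as known p53 targets, however, a status that can rest on p53 sites near promoters. Nothing about the members as a set is therefore read from the shares given below. RefSeq promoter windows (GRCh38.p14, 250 bases before to 50 after each gene start) were at hand for 7 of the 10 members, in 15 windows, and not for TP53INP1, RRM2B and PHLDA3. Each window was searched for the p53 consensus, a pair of 10-base elements, with 0 to 3 bases between them and at most 2 mismatches. The consensus reads the same on both strands. DDB2 and MDM2 held such a pair, 2 of the 7 members, against 908 of 27305 genes (3.33%) and 939 of 35116 windows (2.67%) in the whole RefSeq table. The pairs are shown because one belongs to a member that differed between the groups and the other to a member that did not pass the threshold. Capitals mark bases that fit the consensus, and small letters mark mismatches or the base between the elements.
DDB2, chr11:47214979-47214999, plus strand: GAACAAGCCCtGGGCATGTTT
DDB2, overlapping pair, chr11:47214969-47214988, plus strand: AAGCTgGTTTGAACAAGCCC
MDM2, chr12:68808923-68808942, plus strand: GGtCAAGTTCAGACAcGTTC

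The first DDB2 pair had 0 mismatches and 1 base between its elements, and lay from 5 to 25 bases after the downstream one of the RefSeq gene starts. In GENCODE 29 (GRCh38) 3 of the 16 DDB2 transcripts span it. It fell inside an untranslated stretch of an exon in 1 of these, and was not wholly inside an exon in the 2 others. The MDM2 pair had 2 mismatches and 0 bases between its elements, and lay at positions -94 to -75 relative to an internal gene start. None of the 7 MDM2 transcripts that span it had it in an exon, so that it was intronic. MDM2 is known to be transcribed from an upstream promoter and from this internal, p53-responsive one. The bases before the internal start are printed up to the first annotated exon, with the pair in capitals. Capitals there mark only a pair with at most 2 mismatches, so that any pair with 3 stays in small letters.
MDM2, chr12:68808767-68809001, plus strand: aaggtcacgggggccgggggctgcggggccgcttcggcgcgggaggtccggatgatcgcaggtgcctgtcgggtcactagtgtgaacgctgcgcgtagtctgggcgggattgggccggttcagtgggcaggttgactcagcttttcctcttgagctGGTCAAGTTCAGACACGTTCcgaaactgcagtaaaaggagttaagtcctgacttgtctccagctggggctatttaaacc

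At most 1 mismatch left only DDB2 (94 of 27305 genes, 0.344%). With up to 3 mismatches and no base between the elements, a setting added after seeing the data, SESN1 joined MDM2 and DDB2 (1745 genes, 6.39%). A match is a description of letters, and for the other members it says only that these letters were not in these windows.

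Of the 10 members, 6 were higher in the numerator group at an adjusted p of at most 0.05, 0 were lower and 4 did not pass in the authors' deposited table. Over all genes 14.7% of 13957 tested genes were higher and 14.8% lower, and among the 8312 genes at or above the low-level filter 21.0% were higher and 21.6% lower. The members were picked with this comparison known, so nothing is read from that contrast. The count of members higher was 6 when p-values were adjusted over every gene with one (9.01% of all genes higher) and 6 over genes at the low-level filter (22.5%). Over protein-coding genes 6 were higher (16.1%) and 1, BTG2, was lower (16.3%). The count of members higher was 5 in a test against a 1.5-fold change (2.36%). With standard errors widened 2.03 times to the robust spread of all statistics it was 5 (4.30%). Centring the changes on their median altered nothing, because that median was 0 over all tested genes. The median log2 fold change of the 10 was 0.71 against 0.00 over all tested genes. Their changes were not uniform, running from 1.74 for ZMAT3 through values near 0 for MDM2 and SESN1 to a poorly determined -5.65 for BTG2 in the authors' deposited table.

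**Figure D1:**
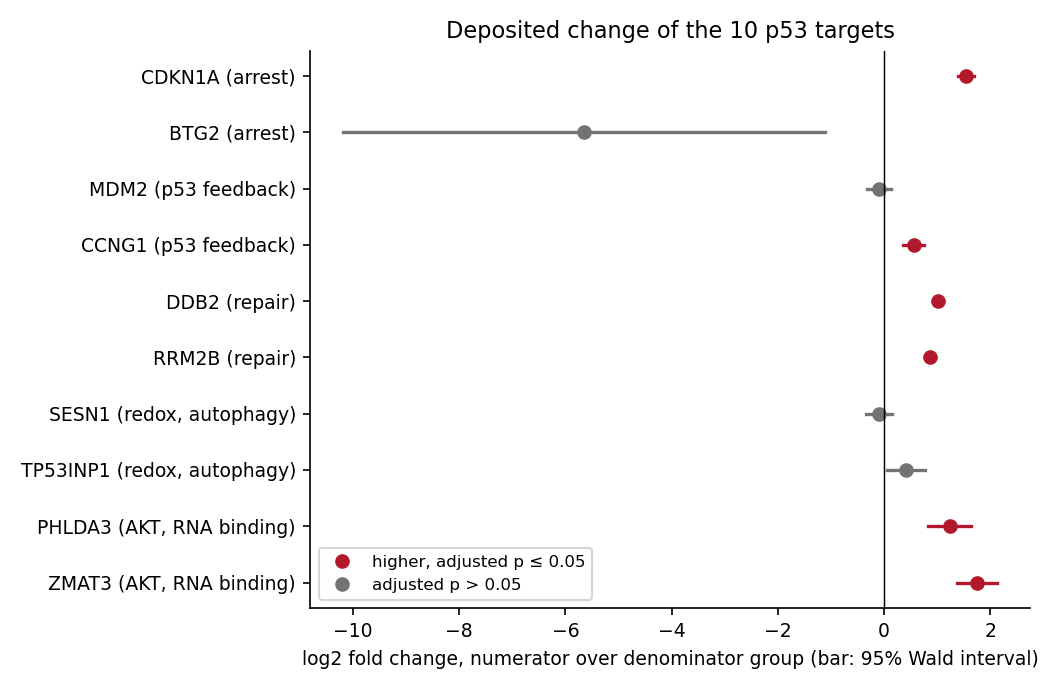
Log2 fold change of each member (x axis, numerator over denominator group), grouped by role, as deposited, with bars for the 95% Wald interval computed from the deposited standard error. CDKN1A, CCNG1, DDB2, RRM2B, PHLDA3 and ZMAT3 (red) lie right of 0, MDM2 and SESN1 sit on it, and the bar of BTG2 runs from -10.19 to -1.11.

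CDKN1A encodes the inhibitor of cyclin-dependent kinases through which p53 halts the cell cycle before S phase. It lies on chromosome 6 (36676460 to 36687339, plus strand, GRCh38). The authors' deposited table gave it a mean normalized count of 2849 and a log2 fold change of 1.55 with an SE of 0.08 (adjusted p = 4.46e-88). That is 2.92-fold higher in the numerator group, with a 95% Wald interval of 2.63 to 3.24. The change ranked at the 98.7th percentile of the genes at or above the low-level filter.

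BTG2, an antiproliferative protein that engages the mRNA deadenylation machinery, was scarce and did not pass. The authors' deposited table gave BTG2 a mean normalized count of 3.76, below the low-level filter. That amounts to 33.8 normalized counts in all if the mean covers 9 libraries. A value of -5.65 on the log2 scale (SE 2.32, adjusted p = 0.0501) was listed in the authors' deposited table, just outside the threshold. The Wald interval ran from -10.19 to -1.11, too wide to give the size of a change, and its standard error exceeded that of 93.5% of the 200 genes nearest in mean. Adjusted over protein-coding genes only, the adjusted p was 0.0464, and over every gene with a p-value it was 0.0757. A low mean here need not be a low mRNA level. ATR, a kinase gene that dividing cells use and which was singled out after its value was seen, stood at 3.10 beside 5207 for its relative ATM in the authors' deposited table. The table does not show whether reads of such genes went uncounted.

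The members that act back on p53 divided. MDM2 (chromosome 12, 68808176 to 68850686, plus strand) had a mean normalized count of 718 and a log2 fold change of -0.10 with an SE of 0.11 (adjusted p = 0.589) in the authors' deposited table. Its 95% Wald interval, from 0.799-fold to 1.09-fold, does not reach the change of any of the 6 members called. CCNG1, a cyclin that brings a phosphatase to MDM2, had a mean normalized count of 3612 and a log2 fold change of 0.56 with an SE of 0.10 (adjusted p = 1.55e-07) in the authors' deposited table. This is a 1.47-fold difference, with an interval of 1.29 to 1.68. CCNG1 was the one called member to lose its call, with an adjusted p of 1.00 against a 1.5-fold change and 0.0578 with widened standard errors.

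Reads of MDM2 may be shared with overlapping genes. A processed pseudogene, ENSG00000256664, overlaps its exons on the same strand and had a mean normalized count of 530 and a log2 fold change of 0.14 with an SE of 0.12 (adjusted p = 0.401) in the authors' deposited table. CPM overlaps on the other strand, with a mean of 10.4 in the authors' deposited table. How reads were divided between them is not given in the sources used here. No other member overlapped the exons of a gene in the table.

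Both repair members were higher. DDB2 is the subunit of the DNA damage-binding complex that recognises ultraviolet lesions and starts nucleotide excision repair. It lies on chromosome 11 (47214465 to 47239240, plus strand), with a mean normalized count of 3909 and a log2 fold change of 1.02 with an SE of 0.05 (adjusted p = 4.94e-98) in the authors' deposited table. Its 2.03-fold difference (interval 1.90 to 2.17) had an interval of 0.93 to 1.12 on the log2 scale. RRM2B, the p53-inducible small subunit of ribonucleotide reductase, which supplies deoxynucleotides outside S phase, had a mean normalized count of 5443 and a log2 fold change of 0.87 with an SE of 0.05 (adjusted p = 1.53e-63) in the authors' deposited table. Its difference was 1.82-fold, with an interval of 1.70 to 1.95.

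Of the stress and autophagy members neither passed. SESN1, a sestrin that restrains the growth kinase mTORC1, had a mean normalized count of 517 and a log2 fold change of -0.10 with an SE of 0.13 (adjusted p = 0.619) in the authors' deposited table. The interval, 0.785-fold to 1.10-fold, lies below the 1.47-fold difference of CCNG1. TP53INP1, which promotes autophagy and the phosphorylation of p53, had a mean normalized count of 1502 and a log2 fold change of 0.41 with an SE of 0.18 (adjusted p = 0.0754) in the authors' deposited table. Its interval of 1.04 to 1.70 overlaps that of CCNG1. The standard error was above that of 97.5% of the 200 genes nearest in mean, whose median was 0.08. The change of TP53INP1 was thus less precisely determined than that of most genes of its level.

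The last pair had the lowest means of the 6 called members and the widest intervals among them. ZMAT3, a zinc-finger protein that binds RNA and shapes splicing and mRNA stability, had a mean normalized count of 193 and a log2 fold change of 1.74 with an SE of 0.19 (adjusted p = 8.18e-18) in the authors' deposited table. At 3.35-fold (interval 2.57 to 4.37) it had the largest rise of the members. PHLDA3 competes with the kinase AKT for membrane lipids and so limits survival signalling. It had a mean normalized count of 230 and a change of 1.23 on the log2 scale (SE 0.21, adjusted p = 3.59e-08) according to the authors' deposited table. The difference was 2.35-fold, with an interval of 1.77 to 3.12, and the call was held narrowly against a 1.5-fold change (adjusted p = 0.0404) and with widened standard errors (0.0416).

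**Figure D2:**
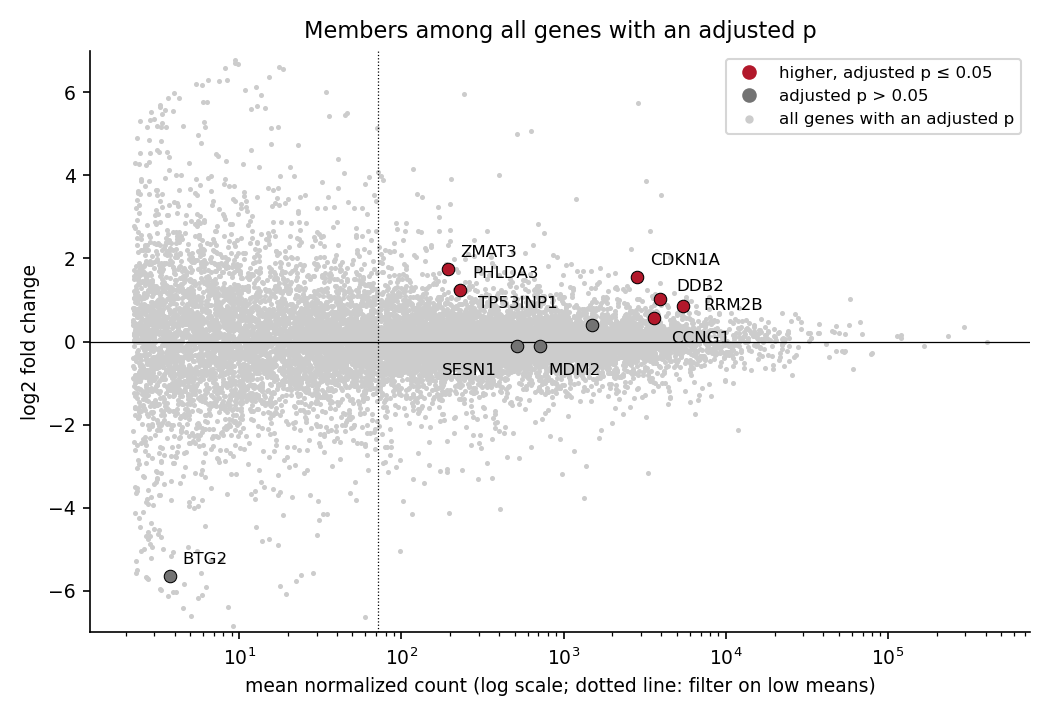
Log2 fold change (y axis) against mean normalized count (x axis, log scale) of the genes with an adjusted p in the authors' deposited table, without 12 genes whose change exceeds 7 in size. Members are named and outlined, red where higher at an adjusted p of at most 0.05 and grey otherwise. BTG2 is the one member left of the dotted line, the low-level filter of 72.0.

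Levels can be set against each other only per length of transcript. Divided by the longest protein-coding transcript in GENCODE 29, the mean normalized count per kilobase was 2090 for DDB2, 1470 for CCNG1, 1257 for CDKN1A and 1104 for RRM2B. These 4 stood above 91.8% or more of the 8017 coding genes at or above the low-level filter, whose median was 162. TP53INP1 followed at 266 per kilobase and SESN1 at 147. PHLDA3 had 87.2, MDM2 56.8, ZMAT3 20.5 and BTG2 1.39 per kilobase. These levels depend on which transcript is taken. With the median transcript length in place of the longest, MDM2 stood at 899 per kilobase, moving from place 8 to place 5, RRM2B at 4332, CCNG1 at 3930, DDB2 at 4983 and ZMAT3 at 65.6. DDB2 was again first and BTG2 last. The spread over samples is not known, so neighbours in this order cannot be said to differ. Members with high and with low levels were both among the 6 that were higher in the numerator group.

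MDM4, the relative of MDM2 that blocks the activity of p53, was at -0.18 (SE 0.18, adjusted p = 0.506) according to the authors' deposited table. Of 15 genes of the list of p53 regulators 4 were higher, 3 were lower and 8 did not pass. Of all genes at or above the low-level filter 21.0% were higher and 21.6% lower, so the count is near the background and nothing about the list is read from it. TP63 and TP73, related transcription factors that bind similar DNA elements, were at 1.86 (SE 0.25) and 0.92 (SE 0.29) on the log2 scale in the authors' deposited table, from means of 103 and 194. USP7, which removes ubiquitin from MDM2 and p53, was at 0.25 (SE 0.04) and the kinase HIPK2 at 0.38 (SE 0.14) in the authors' deposited table. CDKN2A, whose ARF product inhibits MDM2, was lower at -1.18 (SE 0.13, adjusted p = 1.63e-19), as were the acetyltransferase CREBBP at -0.65 (SE 0.07) and the damage-response adaptor TP53BP1 at -0.30 (SE 0.06), all on the log2 scale in the authors' deposited table. With widened standard errors TP53BP1, TP73 and HIPK2 lost their calls (adjusted p = 0.166, 0.538 and 0.701). The table counts genes and does not separate the transcripts of CDKN2A.

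A further 44 p53 targets were listed by role, of which 40 were in the table and 38 were tested. Among these 14 were higher, 6 were lower and 18 did not pass in the authors' deposited table, with a median log2 fold change of 0.32. Over all tested genes 14.7% were higher and 14.8% lower, with a median of 0.00, and the share of these targets that was lower is near that background. At or above the low-level filter 14 of 29 of these targets were higher and 6 lower. Of all genes at that filter 21.0% were higher and 21.6% lower. The same shares stand behind the counts of the shorter lists below, for which no test was made. This list too was written with earlier results of these data known, so nothing is read from the share that was higher.

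Of the 7 genes of DNA repair and nucleotide supply other than members 5 were higher, 0 were lower and 2 did not pass. These were FANCC at -0.27 (SE 0.92) and PCNA at -0.21 (SE 0.51) in the authors' deposited table. Both had means below the low-level filter, 26.6 and 66.9, and their changes were poorly determined. The median log2 fold change of the 7 genes was 0.50. XPC, the partner of DDB2 in damage recognition, was at 0.66 (SE 0.08, adjusted p = 4.76e-16) according to the authors' deposited table. ASCC3, a helicase of alkylation repair, was at 0.77 (SE 0.17), RPS27L, a ribosomal protein paralogue, at 0.62 (SE 0.04) and POLH, the polymerase that copies past ultraviolet lesions, at 0.50 (SE 0.11) in the authors' deposited table. Of these POLH and ASCC3 lost their call with widened standard errors (adjusted p = 0.206 and 0.197).

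Arrest genes other than members were fewer and mixed, with 1 higher, 1 lower and 3 not past the threshold of 5 tested. E2F7, a repressor of E2F targets, was at 1.62 (SE 0.46, adjusted p = 0.00237) and PLK3, a stress-responsive kinase, at -0.97 (SE 0.27, adjusted p = 0.00224) according to the authors' deposited table. Both lost the call with widened standard errors, with adjusted p of 0.437 for E2F7 and 0.433 for PLK3.

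Other genes listed under feedback also went both ways, with 2 higher, 2 lower and 1 not past the threshold of 5. Being on that list does not show that a gene acts back on p53 in these samples. TRIM22, an antiviral protein that p53 induces, was at 1.26 (SE 0.14), and WRAP53, a protein needed for telomerase to reach Cajal bodies, at 0.32 (SE 0.10) in the authors' deposited table. COP1 and RCHY1, ubiquitin ligases which act on p53 as MDM2 does, were at -0.44 (SE 0.15) and -0.34 (SE 0.12) in the authors' deposited table. COP1, RCHY1 and WRAP53 lost their calls with widened standard errors (adjusted p = 0.596, 0.635 and 0.550).

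In metabolism, redox and autophagy 2 of the 6 other tested genes were higher and 0 lower. FUCA1, a lysosomal fucosidase, was at 1.17 (SE 0.14, adjusted p = 4.55e-15), and FDXR, a mitochondrial reductase, at 1.02 (SE 0.27, adjusted p = 0.00113, 0.378 with widened errors), in the authors' deposited table. Of 10 other genes of survival and death outside the BCL2 family 2 were higher, 2 were lower and 6 did not pass, with a median of -0.13. The death receptor genes TNFRSF10B and TNFRSF10A were at 1.14 (SE 0.13) and -2.23 (SE 0.33) in the authors' deposited table, on opposite sides of 0. PIDD1, which builds a caspase-activating complex, was at 0.54 (SE 0.16) and APAF1, the core of the apoptosome, at -0.18 (SE 0.06) in the authors' deposited table, both losing the call with widened errors (adjusted p = 0.476 and 0.515).

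Among p53 targets of the BCL2 family 2 of 5 were higher, 1 was lower, and the remaining 2 missed the threshold. PMAIP1, a pro-apoptotic gene, was at 1.66 (SE 0.09) beside CDKN1A at 1.55, BBC3 at 0.63 (SE 0.19, adjusted p = 0.00393, 0.486 with widened errors) and BID at -1.33 (SE 0.17) in the authors' deposited table. MDM2 and SESN1 were not alone among p53 targets in lying near 0. Singled out after their values were seen, PPM1D, the phosphatase that switches p53 signalling off, was at 0.02 (SE 0.08), BAX at 0.04 (SE 0.10) and the death receptor gene FAS at -0.08 (SE 0.08) in the authors' deposited table.

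**Figure D3:**
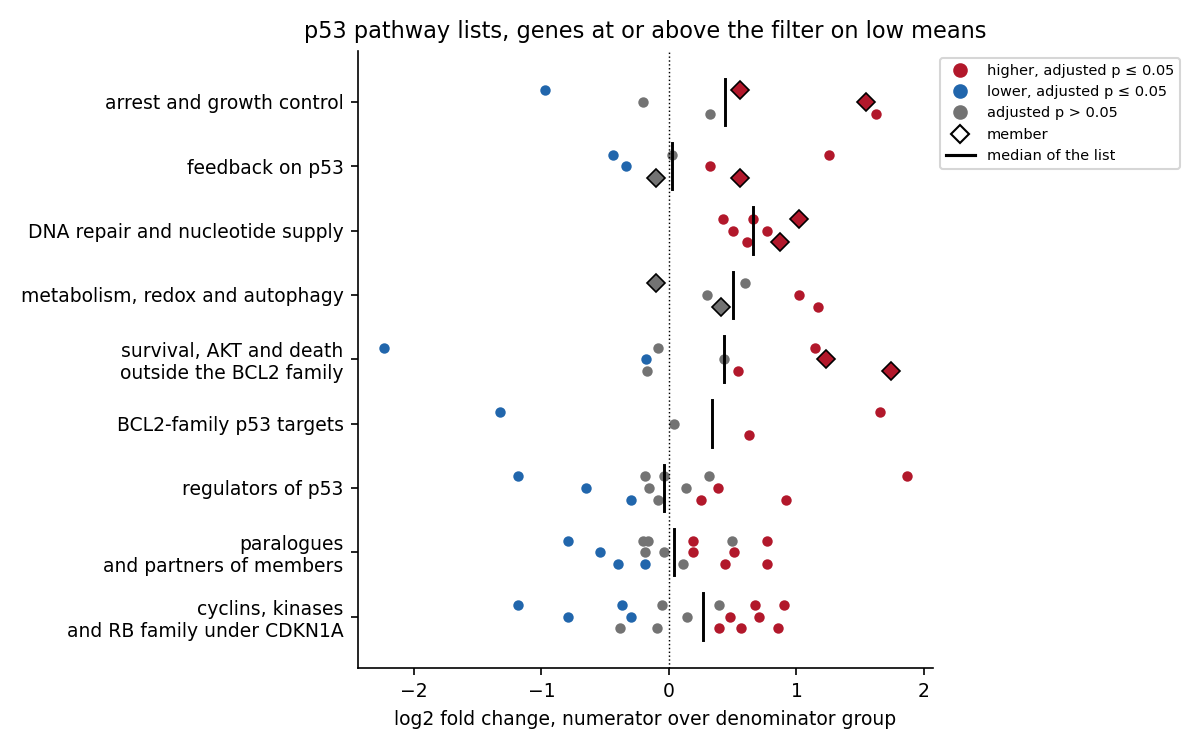
Log2 fold change (x axis, as deposited) of the genes of 9 p53 pathway lists at or above the low-level filter, with members as diamonds, other genes as circles and the median of each list as a black bar. The 7 repair genes drawn, members included, all lie right of 0 in red, whereas the list of p53 regulators is spread on both sides of 0. FANCC and PCNA of the repair list, below the filter and with negative estimates, are not drawn.

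Members were next set beside their relatives, which share protein family or complex. Of 25 relatives and partners listed, 20 were tested, of which 7 were higher, 5 were lower and 8 did not pass in the authors' deposited table. CCNG1 and its paralogue CCNG2 had opposite signs, with CCNG2 at -0.79 (SE 0.09, adjusted p = 1.20e-17) according to the authors' deposited table. GAK, a kinase that associates with cyclin G, was at -0.54 (SE 0.17, adjusted p = 0.00581, 0.525 with widened errors) in the authors' deposited table. PHLDA3 and PHLDA1 also differed in sign, PHLDA1 being far more abundant, with a mean normalized count of 12377, and at -0.40 (SE 0.05, adjusted p = 7.14e-14) according to the authors' deposited table. Whereas SESN1 lay near 0, SESN3, a sestrin best known as a target of FOXO factors, was at 0.77 (SE 0.09, adjusted p = 3.64e-16) according to the authors' deposited table.

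The subunits of ribonucleotide reductase were all at positive values. RRM2, the small subunit used in S phase, was at 0.77 (SE 0.07, adjusted p = 1.03e-24), close to RRM2B at 0.87, and the large subunit RRM1 at 0.49 (SE 0.25, adjusted p = 0.130) according to the authors' deposited table. DDB1, the partner of DDB2, was at 0.51 (SE 0.05, adjusted p = 1.07e-20) from a mean of 11845 in the authors' deposited table. The log2 interval of DDB1, 0.40 to 0.61, lay below that of DDB2, 0.93 to 1.12, although this difference was not tested. CUL4A, the cullin of the ubiquitin ligase that holds DDB1 and DDB2, was at -0.18 (SE 0.07, adjusted p = 0.0207, 0.669 with widened errors) in the authors' deposited table.

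BTG3 was at 0.44 (SE 0.06, adjusted p = 5.42e-14) and BTG1 at -0.20 (SE 0.24, adjusted p = 0.615) according to the authors' deposited table, beside the scarce BTG2. The antiproliferative relatives TOB1 and TOB2 were scarce too, with means of 23.8 and 29.1, and were at 2.70 (SE 0.82, adjusted p = 0.00499) and -1.24 (SE 0.39, adjusted p = 0.00690) on the log2 scale in the authors' deposited table. Both lost the call with widened errors (adjusted p = 0.509 and 0.541), and BTG4, with a mean of 1.75, had no adjusted p. CDKN1B, the closest relative of CDKN1A, had a mean of 10.7 and a log2 fold change of -1.11 with an SE of 0.90 (adjusted p = 0.401) in the authors' deposited table. TP53INP2 at 0.11 (SE 0.31), ZMAT2 at -0.16 (SE 0.08), ZMAT5 at -0.04 (SE 0.15) and ZMAT1 at -0.27 (SE 0.59) did not pass in the authors' deposited table. CDKN1C and ZMAT4 were listed at 0. The symbols SESN2 and PHLDA2 were looked up but not found in the authors' deposited table.

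**Figure D4:**
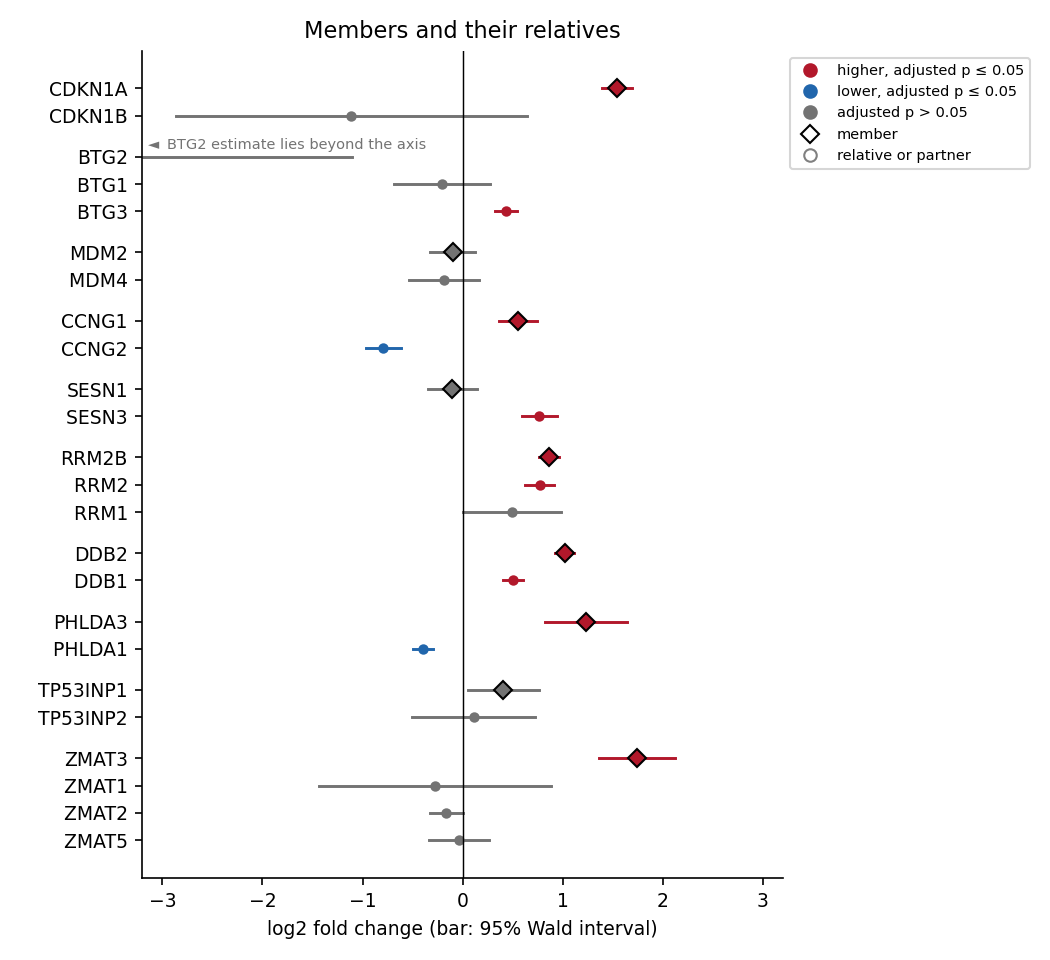
Log2 fold change (x axis, as deposited, with 95% Wald intervals) of each member (diamond) above its relatives or partners (circles). The estimate of BTG2, -5.65, lies beyond the left end of the axis, so its diamond is not drawn. CCNG1 and PHLDA3 lie right of 0 while CCNG2 and PHLDA1 lie left of it, and the 3 ribonucleotide reductase genes RRM2B, RRM2 and RRM1 lie between 0.49 and 0.87.

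CDKN1A acts on cyclins and their kinases, so these were listed as well. Of 19 tested genes 7 were higher, 4 were lower and 8 did not pass in the authors' deposited table, with a median log2 fold change of 0.14. The kinase genes CDK1 at 0.85 (SE 0.05) and CDK2 at 0.90 (SE 0.23) were higher along with their inhibitor gene, as were the kinase inhibitor CDKN2D at 0.70 (SE 0.08) and the mitotic cyclin CCNB1 at 0.67 (SE 0.07), in the authors' deposited table. CCND3, the most abundant of the D-type cyclins listed, was at -0.37 (SE 0.05), the transcription factor E2F3 at -0.80 (SE 0.11) and the RB relative RBL2 at -0.30 (SE 0.11) in the authors' deposited table. With widened standard errors CDK2 and RBL2 lost their calls (adjusted p = 0.318 and 0.714).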

How the data were processed

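The processed data are 1 table. STAR, Salmon and the build hg38 are named in the submitters' processing notes without role or version, and the program behind the table is not given in the sources used here. The authors deposited, per the file headers, a mean of normalized counts, used here as a signal, a log2 fold change with its standard error, a Wald statistic (a score) and a p-value with its adjusted p-value. The statistic equalled the ratio of change to error to within 4.23e-07 and the adjusted p a Benjamini-Hochberg adjustment over 13957 genes to within 3.66e-07. No values per sample were used, so the planned edgeR and DESeq2 fits, the replicate block and the leaving out of replicates were not run. The depth of each library is unknown.

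The members and lists were chosen with earlier results of these data known. Named genes are all members, MDM4, the paralogues, and up to 4 genes per list and direction past an adjusted p of 0.05 with a mean of at least 72.0; 1 gene of that rule is not reported here. Identifiers were matched to names (33483 of 33644) and to GENCODE 29 on GRCh38 (33582). Intervals are 95% Wald intervals from the deposited errors. Alternatives adjusted over other sets of genes, tested against a 1.5-fold change, widened errors by 2.03, the robust spread of all statistics, or centred the changes. With no genome at hand, p53 pairs were searched in RefSeq promoter windows in place of the planned 5000 bases. Python 3.11.15, numpy 2.4.6, pandas 2.3.3, scipy 1.17.1 and matplotlib 3.10.9 were used, and calls and searches were tested on simulated data.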

Additional observations from a re-analysis of the deposited data

How the results depend on the processing

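No paired analysis was possible because the table holds no values per sample. For the same reason no replicate could be left out and no other tool run, and the wider sequence windows were not searched because no genome was at hand. Centring the changes altered nothing, because their median over all tested genes was 0. The count of called members was 6 as deposited, adjusted over every gene with a p-value and among genes at the low-level filter (where BTG2 is not tested). It was 7 over protein-coding genes (BTG2 joined) and 5 against a 1.5-fold change and with widened errors (CCNG1 lost). All 5 of those were among the 6. Against a 1.5-fold change the other p53 targets called fell from 20 to 6 and all listed genes, members included, from 55 to 14. Of all 13957 tested genes 4.68% were called in that setting, in either direction. By list, with members included, arrest kept 1 of 4 called genes, feedback 1 of 5, repair 2 of 7 and metabolism 1 of 2. Survival and death outside the BCL2 family kept 4 of 6 and BCL2-family targets 2 of 3. Regulators kept 2 of 7, relatives 0 of 12 and cyclins 2 of 11. The arrest gene kept was the member CDKN1A, and the repair genes kept were the members DDB2 and RRM2B. From the feedback list TRIM22, which is not a member, was kept. With widened errors 8 other targets and 29 listed genes were called, where 8.57% of all tested genes were called in either direction. Arrest then kept 1, feedback 1, repair 4, metabolism 1, survival and death 4 and the BCL2 family 2. Regulators kept 4, relatives 6 and cyclins 7, again with members included in every list. The arrest gene kept was again CDKN1A, the gene of the feedback list again TRIM22, and DDB2 and RRM2B were among the 4 repair genes. Both settings ask for more than the deposited test by construction. At most 1 mismatch left 1 member with a p53 pair in place of 2.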
